A study of Mus musculus with 6 samples.

Results

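The genes described here are 10 of the BCL2 family, which decides whether a cell dies through its mitochondria: the pro-survival genes Bcl2, Bcl2l1, Mcl1 and Bcl2l2, the effector genes Bax and Bak1, and the BH3-only genes Bcl2l11, Bbc3, Pmaip1 and Bid. They were taken from a named list and measured by the probe set with the highest mean among those annotated to that gene alone. This gave 9 of the 10 members, among 22180 genes measured in all, and Bax was not analysed here because no such probe set was annotated to it. RNA from sorted bone marrow cells of leukemic mice was hybridised to 6 Affymetrix arrays, of which 3 represent chronic (CML) and 3 acute myeloid leukemia (AML). All 6 samples came from Col2.3 GFP mice, whose green fluorescent reporter, driven by part of the Col1a1 promoter, marks osteoblast lineage cells. The labels call the sorted cells osteoblastic and the titles call them stromal. Strain, age, the way each leukemia was made and the number of mice per sample are not given in the labels, and no array from a mouse without leukemia was part of the comparison. The titles separate CML from AML, but the source name of every sample, including those titled AML, says CML, so every direction below rests on the titles. The labels do not tell whether replicates were separate mice, and the p-values therefore cover only the spread among these arrays, some of which may be technical.

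As background, BAX and BAK form pores in the outer mitochondrial membrane, through which cytochrome c escapes and activates caspases. BCL2, BCL-XL (encoded by Bcl2l1), MCL1 and BCL-W (encoded by Bcl2l2) bind and restrain them. The BH3-only proteins BIM (Bcl2l11), PUMA (Bbc3), NOXA (Pmaip1) and BID relay stress signals by occupying the pro-survival proteins or by activating the effectors directly. In blood formation, progenitors and granulocytes lean on MCL1, maturing red cells on BCL-XL and lymphocytes on BCL2.

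None of the 9 measured members passed an adjusted p of 0.05 in limma. Over all genes 1.91% passed, 1.83% as higher and 0.0812% as lower in AML, so that 0 of 9 is close to the background. At an unadjusted p under 0.05 in limma there were 4 members, Bcl2, Mcl1 and Bid higher and Bcl2l1 lower in AML, where 21.5% of all genes were at that level. The groups did not overlap for 5 members, with Bcl2, Mcl1 and Bid higher and Bcl2l2 and Bbc3 lower in AML. The groups did not overlap for 31.3% of all genes. By value, 6 members were higher and 3 lower in AML, with a median log2 change of 0.43 against -0.11 over all genes, of which 38.3% were higher. No gene of the array passed in limma without CML 3, AML 1 or AML 2, where 3533, 3048 and 3750 genes had an unadjusted p below 0.05, so each call made with all 6 arrays and named below is lost in those fits. Changes are given as AML minus CML on the log2 scale throughout.

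**Figure D1:**
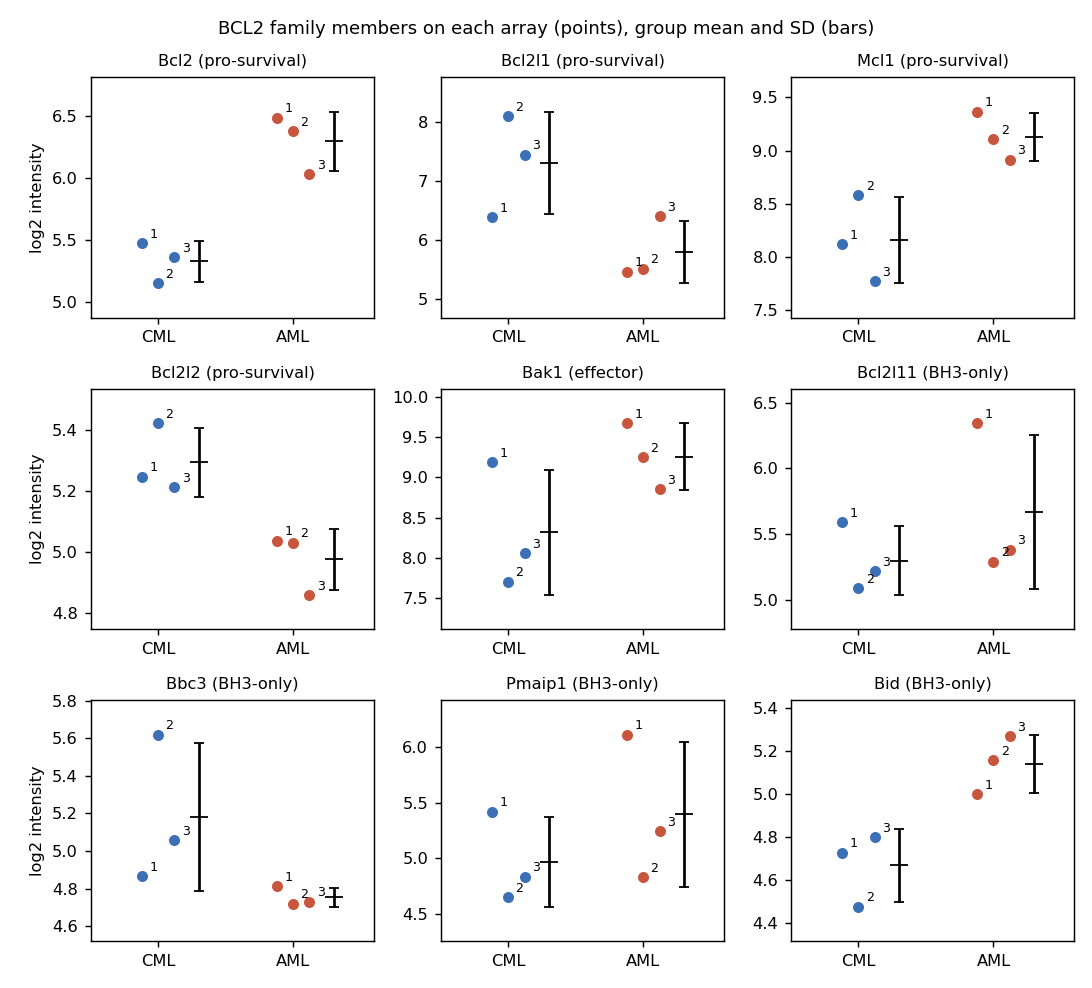
Log2 intensity of the 9 measured members on each array, CML in blue and AML in red, with the replicate number beside each point and the group mean ± SD (n = 3) as a bar. Bcl2, Mcl1 and Bid lie higher on every AML array than on any CML array, Bcl2l2 and Bbc3 lie lower, and the other 4 members overlap.

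Promoter windows are shown for the members with the largest changes by value in each direction, and for the BH3-only genes known as FOXO targets. They give the sequence context of genes whose changes by value differed in sign, although none passed the threshold. They are RefSeq windows of GRCm38.p6, from 250 bases before to 50 bases after an annotated start, written 5′ to 3′ on the gene's strand. Windows were searched for 9 of the 10 members, 14 windows in all, and Pmaip1 was left out of this search. Capitals mark matches, on either strand, to the FOXO motif GTAAACA or the GATA motif AGATAA, which do not overlap one another. The windows are Bcl2 at chr1:106714241-106714540 on the minus strand, Mcl1 at chr3:95658471-95658770 on the plus strand, the first of 3 Bcl2l1 windows at chr2:152828440-152828739 on the minus strand, the first of 2 Bcl2l11 windows at chr2:128125788-128126087 on the plus strand and the second of 3 Bbc3 windows at chr7:16310011-16310310 on the plus strand.
Bcl2: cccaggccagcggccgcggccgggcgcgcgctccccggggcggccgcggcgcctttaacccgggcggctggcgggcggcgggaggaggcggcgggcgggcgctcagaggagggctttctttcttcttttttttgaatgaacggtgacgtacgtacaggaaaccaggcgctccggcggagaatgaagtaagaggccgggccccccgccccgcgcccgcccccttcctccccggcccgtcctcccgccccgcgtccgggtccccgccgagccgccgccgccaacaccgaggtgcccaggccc
Mcl1: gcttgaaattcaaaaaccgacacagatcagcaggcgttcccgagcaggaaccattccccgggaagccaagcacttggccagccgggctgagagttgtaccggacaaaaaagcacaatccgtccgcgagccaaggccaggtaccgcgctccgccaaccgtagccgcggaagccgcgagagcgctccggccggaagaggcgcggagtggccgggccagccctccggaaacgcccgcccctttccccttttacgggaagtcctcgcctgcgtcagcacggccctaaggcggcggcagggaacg
Bcl2l1: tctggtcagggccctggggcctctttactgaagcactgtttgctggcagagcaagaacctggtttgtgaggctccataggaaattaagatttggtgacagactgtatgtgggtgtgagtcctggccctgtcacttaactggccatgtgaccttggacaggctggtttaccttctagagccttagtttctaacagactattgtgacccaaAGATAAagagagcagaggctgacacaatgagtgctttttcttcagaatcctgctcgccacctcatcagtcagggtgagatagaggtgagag
Bcl2l11: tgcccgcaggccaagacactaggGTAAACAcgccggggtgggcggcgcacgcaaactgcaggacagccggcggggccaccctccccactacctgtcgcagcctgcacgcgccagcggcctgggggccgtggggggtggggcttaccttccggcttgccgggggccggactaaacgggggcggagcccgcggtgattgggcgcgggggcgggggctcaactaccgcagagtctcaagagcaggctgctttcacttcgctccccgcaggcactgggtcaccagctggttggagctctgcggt
Bbc3: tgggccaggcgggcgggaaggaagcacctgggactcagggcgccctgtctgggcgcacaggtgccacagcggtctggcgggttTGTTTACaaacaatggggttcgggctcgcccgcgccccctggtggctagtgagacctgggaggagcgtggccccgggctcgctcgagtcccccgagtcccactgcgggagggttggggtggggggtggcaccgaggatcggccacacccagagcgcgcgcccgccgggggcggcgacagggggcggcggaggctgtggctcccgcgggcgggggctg

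The Bcl2 and Mcl1 windows held no match to the FOXO or GATA motif, to the STAT motif TTCNNNGAA, to the cyclic AMP response element TGACGTCA or to the E-box CACGTG. The Bcl2l1 window held AGATAA starting 41 bases before its start, and neither of its other windows did. No other window of the 14 searched for the members held that motif, which was in 11.2% of all 32851 windows of this length. The FOXO motif lay 227 bases before the start in Bcl2l11 and 167 bases before it, on the other strand, in Bbc3, and was held by 3.65% of all windows. The other window of Bcl2l11 and the other 2 of Bbc3 did not hold it, so the windows shown for these genes are those with a match. No window of the other members searched held the FOXO motif. None of the 14 member windows searched, which do not include Pmaip1, held the STAT motif or the cyclic AMP response element, against 8.3% and 1.79% of all windows. Among the same 14 windows an E-box was held by 1 window each of Bax and Bbc3, against 7.15% of all windows. A match is a run of letters and does not show that a factor binds there.

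Among the pro-survival genes, Bcl2 and Mcl1 were higher and Bcl2l1 and Bcl2l2 lower in AML by value. Bcl2 (probe set 17226043, chromosome 1) encodes the founding member of the family. CML arrays 1 to 3 gave log2 intensities of 5.48, 5.15 and 5.36, and AML arrays 1 to 3 gave 6.48, 6.38 and 6.03; values below follow this array order. All 3 AML arrays were above all 3 CML arrays, and the arrays within each group lay close together. The change was 0.97 ± 0.18 (SE), a 1.96-fold difference with a 95% confidence interval of 0.54 to 1.39 on the log2 scale, and it fell just short of the threshold (limma adjusted p = 0.0527). Of the members it had the lowest p. It passed after median centring of the arrays (1.12, limma adjusted p = 0.0278) and with array weights (limma adjusted p = 0.0415), and its adjusted p lay between 0.0503 and 0.205 under the other alternatives for the same probe set. A second probe set of Bcl2 (17216395) was dim, from 3.58 to 4.20 on single arrays where the array medians were 4.11 to 4.35, and gave a change of 0.16 ± 0.18 (SE; limma adjusted p = 0.579).

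Mcl1 (probe set 17407826, chromosome 3) encodes a short-lived pro-survival protein on which myeloid and stem cells depend. The log2 intensities were 8.12, 8.58 and 7.77 in CML against 9.37, 9.11 and 8.91 in AML. There was no overlap, CML 2 being the CML array nearest to the AML arrays. The change was 0.97 ± 0.24 (SE), also 1.96-fold, with a 95% confidence interval of 0.40 to 1.55 (limma adjusted p = 0.101). The second probe set of Mcl1 (17400418) gave 8.17, 8.65 and 7.88 in CML and 8.99, 9.16 and 8.64 in AML. There CML 2 and AML 3 came to nearly the same value, so the groups just overlapped, and the change was 0.70 ± 0.24 (SE; limma adjusted p = 0.180). After cyclic loess the change of the first probe set was 0.62 (limma adjusted p = 0.207).

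Bcl2l1 (probe set 17392991, chromosome 2) had the largest difference by value of the 9 members, and in the other direction. It encodes BCL-XL, the pro-survival protein that keeps maturing red cells and platelets alive. CML arrays gave log2 intensities of 6.39, 8.11 and 7.46, and AML arrays 5.47, 5.52 and 6.41. CML 2 and CML 3 stood highest, AML 1 and AML 2 lowest, and CML 1 and AML 3 met in the middle. The change was -1.52 ± 0.47 (SE), 2.86-fold lower in AML by value, with a 95% confidence interval of -2.64 to -0.39 (limma adjusted p = 0.151). With 1 array left out the change ran from -1.12 without CML 2 to -1.98 without CML 1, where the limma adjusted p was 0.0582.

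The order of Bcl2l1 over the arrays was set beside the red cell markers, since Bcl2l1 is known from that lineage. The mean log2 level of 6 measured erythroid genes (Klf1, Epor, Slc4a1, Car1, Ermap and Tfrc) was 7.80, 9.57 and 9.05 in CML against 5.59, 7.63 and 9.30 in AML. The erythroid level was highest on CML 2, as was Bcl2l1, and lowest on AML 1, where Bcl2l1 was also lowest, barely below AML 2. AML 3, the AML array with the most Bcl2l1, also had the highest erythroid level of the AML arrays. The orders were not the same throughout, since the erythroid level was higher on AML 3 than on CML 3, while Bcl2l1 was lower there. The p53 and stress list, described below, had mean levels of 6.33, 7.75 and 6.69 in CML and 6.27, 6.12 and 6.30 in AML. It too was highest on CML 2, and AML 3 was its highest AML array. Of the 6 erythroid genes 5 were lower and 1, Car1, higher in AML by value, and none passed in limma. None was listed at 0, which held for every probe set on the arrays. The part of either list in the Bcl2l1 difference was not tested. In bulk RNA, fewer cells of a type and less RNA per cell cannot be told apart.

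**Figure D2:**
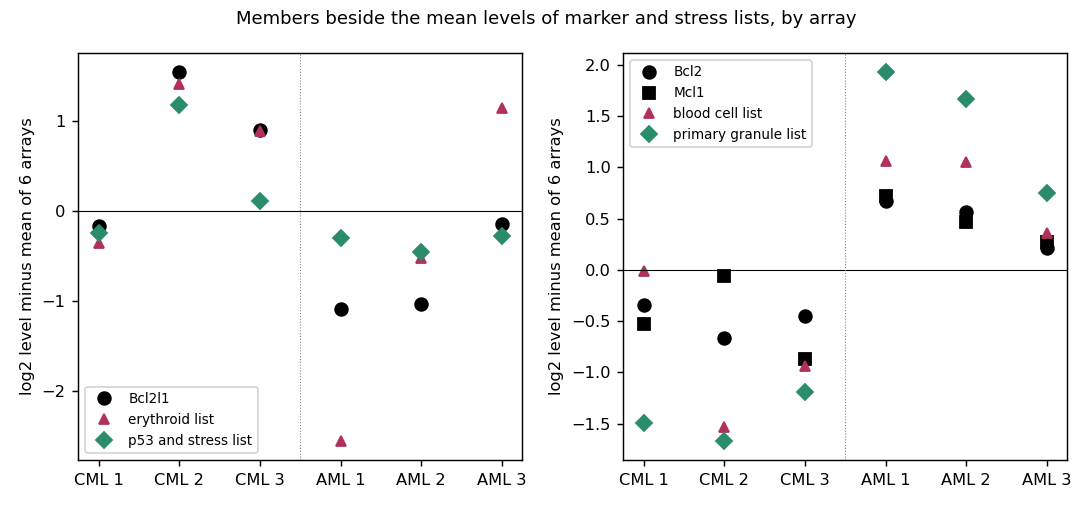
Log2 level minus the mean of the 6 arrays, for Bcl2l1 beside the mean of the erythroid list and of the p53 and stress list (left), and for Bcl2 and Mcl1 beside the mean of the blood cell list and of the primary granule list (right). Bcl2l1 and the erythroid list are both highest on CML 2 and lowest on AML 1. The p53 and stress list is also highest on CML 2 but lowest on AML 2. Bcl2, Mcl1 and both lists on the right lie higher on every AML array than on any CML array.

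Bcl2l2 (probe set 17300349, chromosome 14), which encodes BCL-W, differed by the smallest amount of the 9. It stood at 5.25, 5.42 and 5.21 in CML and 5.04, 5.03 and 4.86 in AML, without overlap. The change was -0.32 ± 0.14 (SE), with a 95% confidence interval of -0.65 to 0.01 (limma adjusted p = 0.242).

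Between the groups, Bcl2, Mcl1 and the blood cell genes were all higher on every AML array than on any CML array by value, the last as the mean of their list. Within CML the order differed, since CML 2 had the most Mcl1 and the lowest level of the list, while Bcl2 was lowest on CML 2 as well. All 18 genes of a blood cell list were higher in AML by value and 3 passed in limma, among them Vav1, a signalling protein of blood cells, at 1.90 ± 0.32 (SE; limma adjusted p = 0.0437). The mean level of the list was 8.29, 6.77 and 7.37 in CML against 9.37, 9.36 and 8.67 in AML. Ptprc, the pan-leukocyte marker CD45, was at 8.27, 4.96 and 6.16 in CML and between 8.17 and 9.30 in AML. Of 9 genes of primary granules and their precursors, all were higher by value and 7 passed, with list means of 6.26 to 6.75 in CML and 8.68 to 9.86 in AML, and the elastase gene Elane changed by 3.85 ± 0.35 (SE; limma adjusted p = 0.0151). Over all genes 1.83% passed as higher in AML. Of 10 genes of mature neutrophils, 7 were higher and 3, Mmp8, Retnlg and Cxcr2, lower in AML by value, and none passed. Their mean level was 9.75, 8.33 and 9.80 in CML against 9.71, 9.52 and 9.27 in AML, so the groups overlapped. With 1 array left out, Vav1 passed in 1 of 6 fits, that without CML 1, and Elane in 3. No marker of these lists was listed at 0 on any array, but neither was any other probe set, the lowest intensity being 2.71. The part of these markers in the differences of Bcl2 and Mcl1 was not tested. Markers of the labelled lineage differed in level. Col1a1, the main collagen of bone, stood between 8.71 and 11.95 in CML and between 7.26 and 9.87 in AML. Sp7, the osteoblast factor osterix, lay between 5.15 and 8.57 in CML and between 4.81 and 5.90 in AML. Bglap, which encodes osteocalcin, was at 7.04 on CML 3 and between 3.31 and 4.84 on the other arrays, around or below the array medians in part. All 13 measured osteoblast genes were lower in AML by value, none passed, and CML 3 was the highest array for all 13. Without CML 3, 10 of the 13 were lower. None of the 9 measured members was highest on CML 3.

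Bak1 (probe set 17342676, chromosome 17), the one effector measured, was higher in AML by value. It encodes BAK, which resides in the mitochondrial membrane and is held in check by MCL1 and BCL-XL. The arrays gave 9.19, 7.71 and 8.06 in CML and 9.67, 9.25 and 8.85 in AML. CML 1 lay within the AML range and the other CML arrays lay below it. The change was 0.94 ± 0.41 (SE), 1.92-fold, with a 95% confidence interval of -0.04 to 1.92 (limma adjusted p = 0.243). Without CML 1 it was 1.38 (limma adjusted p = 0.0714) and without CML 2 it was 0.63 (0.344). CML 1 was also the CML array with the highest level of the blood cell list.

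The BH3-only genes were divided, 3 higher and 1 lower in AML by value. Bid (probe set 17470457, chromosome 6) encodes the protein that links death receptors and caspase 8 to the mitochondria. Bid was at 4.73, 4.47 and 4.80 in CML and 4.997, 5.15 and 5.27 in AML. No CML array reached an AML array, and the spread within each was small. The change was 0.47 ± 0.15 (SE), 1.39-fold, with a 95% confidence interval of 0.10 to 0.84 (limma adjusted p = 0.164).

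Bcl2l11 and Pmaip1 were each set apart by AML 1. Bcl2l11 (probe set 17375961, chromosome 2), which encodes BIM, the killer released when cytokines are withdrawn, was at 5.59, 5.09 and 5.22 in CML and 6.34, 5.29 and 5.38 in AML. Pmaip1 (probe set 17351414, chromosome 18), which encodes NOXA, the BH3-only partner of MCL1, was at 5.42, 4.65 and 4.84 in CML and 6.11, 4.83 and 5.24 in AML. For both genes AML 1 was the highest of the 6 arrays, CML 1 the second highest, and the other 4 arrays lay lower. Among those 4 the AML arrays lay above the CML arrays for Bcl2l11, while for Pmaip1 AML 2 lay just under CML 3. The changes were 0.37 ± 0.31 and 0.43 ± 0.36 (SE), with 95% confidence intervals of -0.37 to 1.12 and -0.44 to 1.29 (limma adjusted p = 0.472 and 0.480). Without AML 1 they were 0.036 and 0.070.

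Bbc3 (probe set 17474097, chromosome 7), which encodes PUMA, a direct p53 target, was the one BH3-only gene lower in AML by value. Bbc3 was at 4.87, 5.62 and 5.06 in CML and 4.81, 4.72 and 4.73 in AML. The AML arrays lay together just below CML 1, without overlap, and CML 2 stood alone above the rest. The change was -0.43 ± 0.21 (SE), with a 95% confidence interval of -0.94 to 0.09 (limma adjusted p = 0.287), and without CML 2 it was -0.21.

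**Figure D3:**
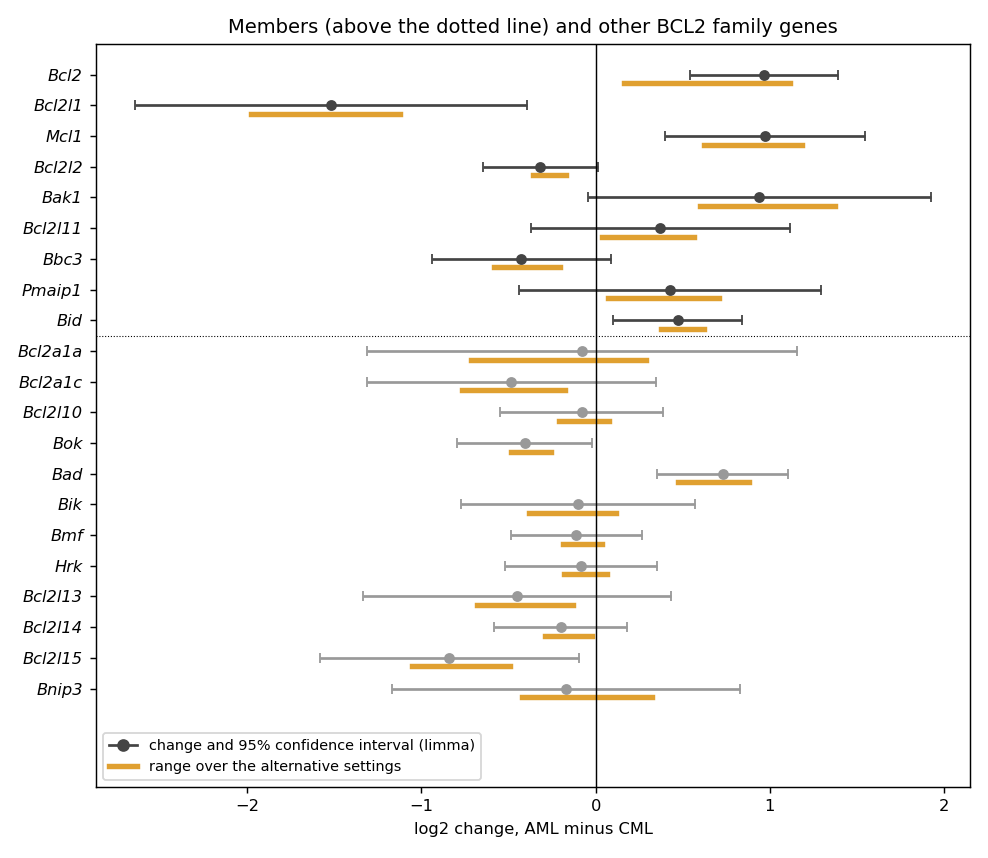
Log2 change, AML minus CML, of the 9 members and of 12 other genes of the family, with the 95% confidence interval from limma (bars) and the range over the alternative settings (orange). The intervals of Bcl2, Mcl1 and Bid lie above 0 and that of Bcl2l1 below it, although no member passed the adjusted threshold.

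The pro-survival and pro-death members did not separate by direction. The median change was 0.33 over the 4 pro-survival genes, which ran from -1.52 to 0.97, and 0.43 over the 5 measured pro-death genes, which ran from -0.43 to 0.94. Averaged over genes and centred on the 6 arrays, the pro-survival level was -0.23, 0.28 and -0.09 in CML against 0.05, -0.03 and 0.02 in AML. The spread of this level was widest among the CML arrays, of which CML 2 had the most Bcl2l1, Mcl1 and Bcl2l2 and the least Bcl2. The pro-death level was 0.09, -0.36 and -0.27 on the CML arrays and 0.52, -0.02 and 0.03 on the AML arrays. The highest pro-death level in each group was on CML 1 and on AML 1. The direction of each of the 9 members was the same in every alternative run. Median centring moved the median change of all genes by 0.15 and cyclic loess by 0.10, both upwards, which is less than the size of every member's change. Single members moved in either direction, and some by more than that median. After cyclic loess Mcl1 went from 0.97 down to 0.62 and Bak1 from 0.94 down to 0.60, while Bid went from 0.47 up to 0.56.

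Of 16 further BCL2 family genes 12 were measured, and none passed in limma. By value 1 was higher and 11 lower in AML, with a median of -0.14, but 5 were higher and 7 lower without CML 3, and 6 were higher and 6 lower after median centring. The higher one was Bad, a BH3-only gene whose product is switched off by survival kinases. It was at 6.28, 5.96 and 6.39 in CML and 6.98, 6.96 and 6.89 in AML, so the groups did not overlap, with AML arrays close to one another. Its change was 0.73 ± 0.16 (SE; limma adjusted p = 0.0749), and it passed after median centring (0.88, limma adjusted p = 0.0308) but was at 0.49 after quantile normalization (0.282).

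The groups of Bok and Bcl2l15 did not overlap either, with lower values in AML. Bok, a BAX-like effector, was at 5.47, 5.39 and 5.81 in CML and 5.22, 5.19 and 5.03 in AML, a change of -0.41 ± 0.16 (SE; limma adjusted p = 0.218). Bcl2l15, a small divergent member of the family, changed by -0.84 ± 0.31 (SE; limma adjusted p = 0.199) and was dim in AML, from 3.11 to 3.50. The pro-survival gene Bcl2a1a, an NF-kB target of granulocytes, was at 6.37 on AML 1 and 4.36 to 5.32 on the other 5 arrays, a change of -0.08 ± 0.52 (SE). It has near-identical copies, so its signal may be shared among them. Bcl2a1c (-0.48), Bcl2l13 (-0.45), Bcl2l14 (-0.20), Bnip3 (-0.17), Bmf (-0.11), Bik (-0.10), Hrk (-0.08) and Bcl2l10 (-0.08) made up the rest. Bmf, Bik and Hrk are BH3-only genes, and Bnip3 is a hypoxia-induced gene of mitochondrial clearance. The signs of Bcl2a1a, Bik and Bmf turned after median centring, and those of Hrk and Bcl2l10 under all 3 other scalings. Hrk and Bcl2l10 were dim on every array, at most 3.07 and 3.26.

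The listed partners of the family at the mitochondrion and the endoplasmic reticulum lay higher in AML by value, all 10 of them, and none passed. Their median change was 0.74. The mean level of the list was 7.06, 7.64 and 6.55 in CML and 7.83, 7.70 and 8.02 in AML, so that CML 3 stood lowest and CML 2 came close to AML 2. The groups did not overlap for 5 of the 10, against 13.3% of all genes that did not overlap as higher in AML. With 1 array left out the count higher by value was 9 without CML 1, where Mff, a receptor for the fission machinery, turned, and 9 without CML 3, where Vdac3, a channel of the outer membrane, turned; both were named after their values were seen. After cyclic loess 8 of the 10 were higher, and after the other scalings all 10. Bcap31, an endoplasmic reticulum protein that binds BCL2 family members, was at 6.78, 8.06 and 6.98 in CML and 8.82, 8.65 and 8.77 in AML, a change of 1.47 ± 0.33 (SE; limma adjusted p = 0.0833). The AML arrays were closely grouped and CML 2 came nearest to them. Without CML 2 it passed (1.87, limma adjusted p = 0.0316), as it did with array weights (0.0444). Tmbim6, which encodes BAX inhibitor 1, changed by 0.91 ± 0.22 (SE; limma adjusted p = 0.0915).

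Of 11 measured genes of the apoptosome and the caspases none passed, 9 were higher and 2 lower by value, and the median was 0.25. The count of higher genes ran from 6 after cyclic loess to 11 after median centring. Apaf1, the scaffold that cytochrome c activates, was at 6.01, 6.88 and 5.49 in CML and 7.46, 7.43 and 6.85 in AML, with CML 2 just inside the AML range. The change was 1.12 ± 0.37 (SE; limma adjusted p = 0.168). Cycs, cytochrome c itself, changed by 0.66 ± 0.27 without overlap of the groups (SE; limma adjusted p = 0.218).

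Among the cell death genes outside the family, 2 of 7 measured genes of the IAP list passed as higher in AML, both of the NAIP group. By value 6 of the 7 were higher and 1 lower. The groups did not overlap for 5, all higher in AML, against 13.3% of all genes that did not overlap in that direction. Naip2 was at 4.38, 4.26 and 3.88 in CML and 7.10, 6.72 and 6.21 in AML, and Naip5 at 5.08, 5.03 and 5.54 in CML and 7.69, 7.23 and 6.90 in AML. The groups were far apart for both, with changes of 2.50 ± 0.26 and 2.05 ± 0.25 (SE; limma adjusted p = 0.0203 and 0.0248). NAIP proteins share a domain with the inhibitors of apoptosis, but are best known as sensors of bacterial flagellin and secretion systems in macrophages. The Naip genes are close copies of one another, so their signals may not be independent. Naip2 passed under all 3 other scalings and Naip5 under 1, and leaving out 1 array at a time left each of them past the threshold in 3 of 6 fits. The other 5 measured genes of the list, which encode inhibitors of caspases and related proteins, did not pass and lay between -0.07 and 0.85.

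Of 11 measured genes of the death receptor pathway 8 were higher and 3 lower by value, the median was 0.23, and none passed. Mlkl, the executor of necroptosis, was at 4.18, 5.37 and 4.60 in CML and 6.99, 7.28 and 6.03 in AML, without overlap, and changed by 2.05 ± 0.42 (SE; limma adjusted p = 0.0665). It passed after median centring, with array weights and when the dimmer 50% or 30% of genes were left out. Cflar, the inhibitor of caspase 8 known as FLIP, changed by 1.32 ± 0.29 (SE; limma adjusted p = 0.0775) and passed after median centring.

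Genes of the p53 and stress responses were mostly lower in AML by value, 15 of 17, with a median of -0.76 and none past the threshold. Over all genes 13687 of 22180 were lower by value. Trib3, a target of the integrated stress response, was at 4.97, 7.20 and 6.10 in CML and 4.17, 4.53 and 4.38 in AML, a change of -1.73 ± 0.52 (SE; limma adjusted p = 0.144). There was no overlap, with CML 2 far above the rest. Without CML 1 Trib3 passed (-2.29, limma adjusted p = 0.0433), the only pass in 16 alternatives. With 1 array left out its change was as small as -1.17. Phlda3, a p53 target, changed by -1.26 ± 0.28 (SE; limma adjusted p = 0.0775), again without overlap. CML 2 was the highest of the 6 arrays for 14 of these 17 genes, and it was also the array with the most Bbc3. Without CML 2, 11 of the 17 were lower, a share close to that of all genes with no array left out. The mean level of the list was 6.33, 7.75 and 6.69 in CML and between 6.12 and 6.30 on the AML arrays. Foxo3, whose product binds the FOXO motif, was at 5.62, 8.81 and 6.69 in CML and 5.28, 5.79 and 6.43 in AML (change -1.21 ± 0.78, SE; limma adjusted p = 0.372). Like Bbc3 it was highest on CML 2, while Bcl2l11 was lowest there; Foxo3 was singled out after its values were seen.

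Of 12 measured genes that govern the turnover or activity of MCL1, BIM and BAD, 5 were higher and 7 lower by value, the median was -0.07 and none passed; 7 were higher after median centring and 4 after cyclic loess. Ywhaz, a 14-3-3 protein that sequesters phosphorylated BAD, changed by 0.97 ± 0.30 without overlap (SE; limma adjusted p = 0.151), and passed without CML 1 (1.30, limma adjusted p = 0.0410). Pim1, a survival kinase that phosphorylates BAD, was at 7.29, 9.22 and 8.77 in CML and 6.51, 6.73 and 7.56 in AML. Like the erythroid level it was highest on CML 2 and lowest on AML 1, and AML 3 was the highest AML array. The change was -1.50 ± 0.53 (SE; limma adjusted p = 0.186).

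**Figure D4:**
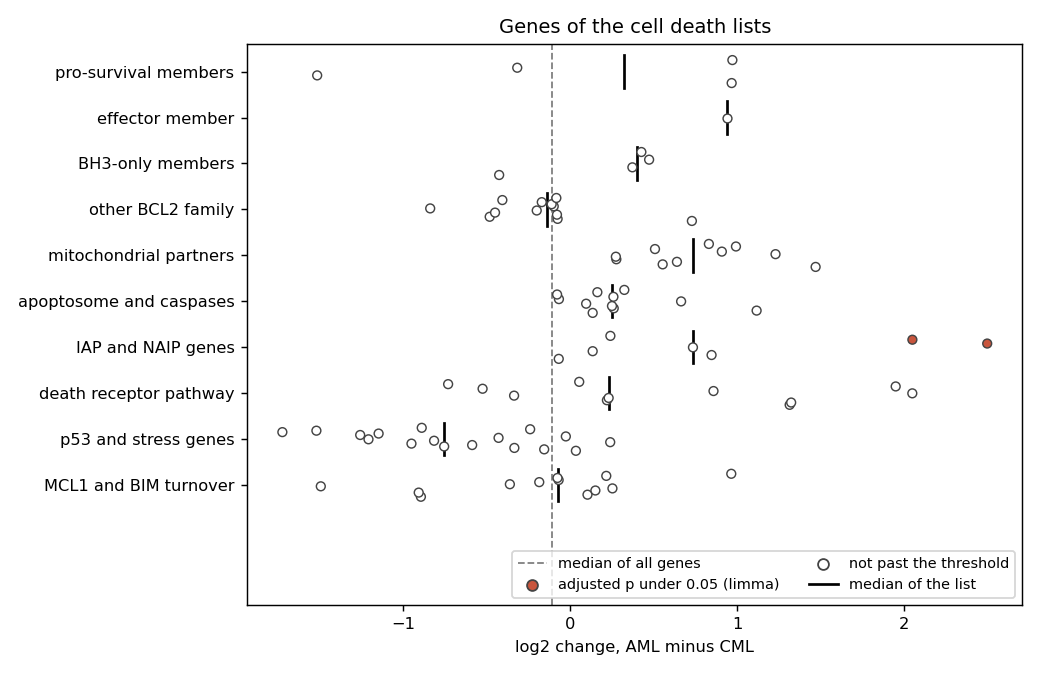
Log2 change, AML minus CML, of each measured gene of the family and of 6 lists of cell death genes, with the median of each list as a black bar and the median of all genes as a dashed line. Filled points passed an adjusted p of 0.05 in limma; these are Naip2 at 2.50 and Naip5 at 2.05, and no BCL2 family gene is among them.

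The genes whose pattern over the 6 arrays was most like that of Bcl2 were Atp8b4, Ncoa1 and Scarb2, with Pearson correlations of 0.998, 0.998 and 0.997, chosen among 11089 other genes above the median mean level. Each passed in limma as higher in AML, with changes of 3.63 ± 0.51, 1.34 ± 0.22 and 2.14 ± 0.34 (SE; limma adjusted p = 0.0317, 0.0414 and 0.0407), and with 1 array left out they passed in 3, 2 and 1 of 6 fits. Those most like Mcl1 were Fibp, Mien1 and Dnajc14, with correlations of 0.997, 0.996 and 0.995 and changes of 0.22, 1.93 and 1.27, none of which passed. The sign of Fibp turned after quantile normalization and cyclic loess. These correlations describe 6 arrays that share the split into CML and AML.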

How the data were processed

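Sorted bone marrow cells were measured on 1 Affymetrix array per sample, after GeneChip terminal labelling, per the labels' protocols. Limma and lumi are named in the submitters' processing notes, with no version; background correction, probe set summary, scaling and genome build are not given in the sources used here. Judging by its range, the deposited intensity is linear, from 2.71 to 8583, with array medians of 17.2 to 20.4. Signal over background was not assessed, and the number of arrays limits the precision.

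Of 39721 probe sets, 23521 were annotated to 1 gene symbol, 1814 to several and 14386 to none. Each of 22180 genes was represented by its brightest probe set on average. Log2 values, with a floor at 1 that none reached, were fitted in limma 3.58.1 (R 4.3.3; lmFit, eBayes, two-sided, Benjamini-Hochberg over all genes, threshold 0.05), 3 CML against 3 AML arrays and no covariate. SE and confidence intervals are limma's moderated ones, ± SD was used in plots, and the fit was tested on simulated data. A list's level averages the log2 values of its genes. Members and lists were chosen with earlier results of these data known. Named were all members, the other measured BCL2 family genes, in each further cell death list the genes past the threshold or else the 2 with the lowest p, the 3 genes most like each of the 2 members with the lowest p, and Ptprc, Vav1, Elane, Col1a1, Sp7 and Bglap. Foxo3, Mff and Vdac3 were chosen after their values were seen, as was the count of each list by value with 1 array left out or under another scaling. Alternatives were 3 scalings, 2 filters on dim genes, 2 treatments of probe sets, trended robust moderation, weights per array, a replicate block and each array left out in turn. Figures used matplotlib 3.10.9.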

Additional observations from a re-analysis of the deposited data

How the results depend on the processing

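The count of members past the threshold was 0 as fitted and 1, Bcl2, after median centring and with array weights, and 0 in every other alternative run, including those with 1 array left out (0 to 0). The direction of the 9 members was the same in all 146 alternative values. The count over all genes was 423 as fitted, 93 after quantile normalization, 896 after median centring, 64 after cyclic loess and 639 with array weights. With 1 array left out it ran from 0 to 438 and was 0 without CML 3, AML 1 or AML 2, where limma gave 3533, 3048 and 3750 genes with unadjusted p below 0.05, and 279 without AML 3. With the replicate number as a replicate block limma called 0, and 3711 genes had an unadjusted p below 0.05. Deviations of same-numbered arrays from their group means correlated at 0.24, -0.30 and -0.25, and those of differently numbered arrays at -0.28 to 0.47. Deviations within a group of 3 arrays constrain one another, so these values cannot decide whether the numbers pair the arrays. The labels state no pairing. Signs turned, without a call, for Bcl2a1a (0.073 after median centring, 0.11 with array weights, -0.71 to 0.29 with 1 array left out), Bcl2l10 (0.070 after quantile normalization, 0.070 after median centring, 0.080 after cyclic loess, -0.21 to 0.050 with 1 array left out), Hrk (0.058, 0.066 and 0.062 under the same scalings, -0.18 to 0.039 with 1 array left out), Bik (0.050 after median centring, -0.38 to 0.12 with 1 array left out), Bmf (0.038 after median centring, -0.19 to 0.0031 with 1 array left out), Bnip3 (-0.42 to 0.33 with 1 array left out), Mff (-0.0098 after cyclic loess, -0.29 to 0.77 with 1 array left out), Vdac3 (-0.058 to 1.33 with 1 array left out) and Fibp (-0.015 after quantile normalization, -0.055 after cyclic loess). The cause was not tested. Signal over background could not be judged, which limits dim genes such as Hrk and Bcl2l10 most.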

Other observations

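The genes most like Bcl2l1 over the 6 arrays, chosen after its values were seen, were Brpf3, Isg20 and Ccdc71l, with Pearson correlations of 0.997, 0.995 and 0.993 among 11089 genes. Isg20, an interferon-induced exonuclease, was at 7.39, 9.76 and 8.69 in CML against 6.22, 6.54 and 7.63 in AML. None of the 3 passed, with changes of -1.03, -1.81 and -0.60 (limma adjusted p = 0.179, 0.185 and 0.230). The CML arrays also differed from one another in B lineage markers, which were highest on CML 1 for 7 of 8 measured genes, with list means of 7.18, 4.09 and 5.63 on CML 1, 2 and 3 and 3.97 to 4.93 in AML. All 8 were lower in AML by value, 7 without CML 1 and 7 under each of the 3 other scalings, and none passed in limma.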
